A study of Bos taurus with 6 samples.

Results

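The genes studied here were 6 genes of fluid transport into the blastocyst cavity, chosen by gene name: the Na,K-ATPase beta subunits ATP1B1 and ATP1B3, the aquaporins AQP3, AQP7 and AQP11, and the sodium-potassium-chloride cotransporter SLC12A2. Each matched 1 row of the 36075 genes listed, under the identifiers ENSBTAG00000002688, ENSBTAG00000014140, ENSBTAG00000008493, ENSBTAG00000020105, ENSBTAG00000019928 and ENSBTAG00000009637 in that order. They were measured by RNA sequencing in 6 libraries of bovine (Bos taurus) blastocysts produced in vitro. In the MT-treated group (3 libraries), oocytes from slaughterhouse ovaries were matured for 22 h with melatonin (MT) at 1e-07 mol/L and then fertilized and cultured, and in the control group (3 libraries) maturation was without MT. Each library came from a pool of 3 whole blastocysts, so the cell types of the embryo were measured together. Values are in TPM, a unit that corrects the reads of each gene for transcript length and for the size of the library.

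The blastocyst cavity fills because the trophectoderm, the outer epithelium of the embryo, moves sodium and water inward. The Na,K-ATPase of the basolateral membrane exports sodium with a catalytic alpha subunit, and its beta subunit is needed for folding of the alpha subunit and its transport to the membrane. Sodium enters the cell on the outer side through exchangers, cotransporters and channels, and water follows through aquaporins.

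Of the 6 genes, ATP1B3 was by far the most abundant, AQP11 and AQP3 were at intermediate levels, ATP1B1 was near the lower limit of the tested range, and SLC12A2 and AQP7 were at or near 0. ATP1B1, ATP1B3 and AQP11 were lower and AQP3 was slightly higher in MT-treated than in control blastocysts. Tests were made with limma on log2(TPM + 1) for the 11953 genes that reached 1 TPM in 3 or more libraries, with Benjamini-Hochberg adjustment and a threshold of 0.05. ATP1B1, ATP1B3, AQP3 and AQP11 entered the test, each with a TPM above 1 in all 6 libraries, and SLC12A2 and AQP7 did not. All 4 tested genes passed the threshold, 1 higher and 3 lower, but so did 95.7% of all tested genes (61.6% higher and 34.1% lower), a background from which the 4 genes do not stand out. The groups did not overlap for any of the 4, as for 96.1% of all tested genes (61.9% with MT-treated libraries higher, 34.2% lower). For a single ratio compared between 3 and 3 libraries, the smallest two-sided p an exact permutation test allows is 0.1.

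The libraries differed widely between the groups. Genes with a TPM above 0 numbered 8854 to 8953 in control and 14372 to 14408 in MT-treated libraries, and 33.8% of the tested genes were listed at 0 in every control library, against 3.01% in every MT-treated library. Over the 5988 genes that reached 1 TPM in all libraries, the library medians were lower in the MT-treated group by a shift of -0.48 on the log2 scale, and the median of the fold changes of the same genes was -0.27. Fold changes after each library was centred on its median are given for the 4 tested genes and for other named genes where they alter the call or the direction, and the 4 also after the MT-treated libraries were shifted by the median fold change. Over the tested genes, Pearson's r of log2(TPM + 1) was 0.991 to 0.999 between libraries of a group and 0.544 to 0.546 between groups, a description across genes, which are not independent. Sequencing depth was not used here, and TPM gives no counting error.

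ATP1B3, the beta 3 subunit, had 2880, 2881 and 2848 TPM in the control libraries. In the MT-treated libraries it had 1870 TPM, 1870 TPM and 1847 TPM. The groups were far apart, and the libraries within each group differed by a coefficient of variation under 1% (0.665% in control and 0.711% in MT-treated). The mean was 2870 ± 19.1 TPM in control and 1862 ± 13.2 TPM in MT-treated blastocysts (SD, n = 3 each), an MT-treated to control ratio of 0.649. The log2 fold change was -0.62 (standard error 0.01, 95% interval -0.65 to -0.60, adjusted p = 5.14e-09 by limma). Relative to the shift of the libraries the fall was smaller, at -0.14 on the log2 scale, and still passed (adjusted p = 3.76e-05 by limma). Relative to the median fold change it was -0.35. ATP1B3 made up 0.306% of the summed TPM of all listed genes in control and 0.204% in MT-treated blastocysts. Among the 5988 genes present in all libraries, 41 were more abundant than ATP1B3 in each control library and 67 or 68 in each MT-treated library.

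ATP1B1, the beta 1 subunit, had 2.57, 3.07 and 2.35 TPM in control and 1.35, 1.37 and 1.06 TPM in MT-treated libraries. Every MT-treated value lay below every control value, at levels where 1 TPM is a large part of the gene. Means were 2.66 ± 0.369 and 1.26 ± 0.174 TPM, respectively (SD, n = 3 each), a ratio of 0.473. The log2 fold change was -0.70 (standard error 0.09, 95% interval -0.92 to -0.47, adjusted p = 0.000381 by limma), a scale on which the change of a gene this low is understated, and it was -1.02 with a pseudocount of 0.1. After median centring it was -0.22 and was no longer called (adjusted p = 0.0682 by limma), whereas relative to the median fold change it was -0.42 (adjusted p = 0.00438 by limma) and after quantile normalization -2.27.

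The ratio of the beta subunits within a library does not depend on how the libraries are scaled to each other. ATP1B1 contributed 0.0892%, 0.106% and 0.0825% of the TPM of both subunits together in the control libraries. In the MT-treated libraries the share was 0.0721%, 0.0732% and 0.0574%. ATP1B3 thus accounted for nearly all beta subunit transcript in both groups, and the share of ATP1B1 was lower in each MT-treated library than in any of the controls (p = 0.1 by the exact permutation test, two-sided).

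**Figure D1:**
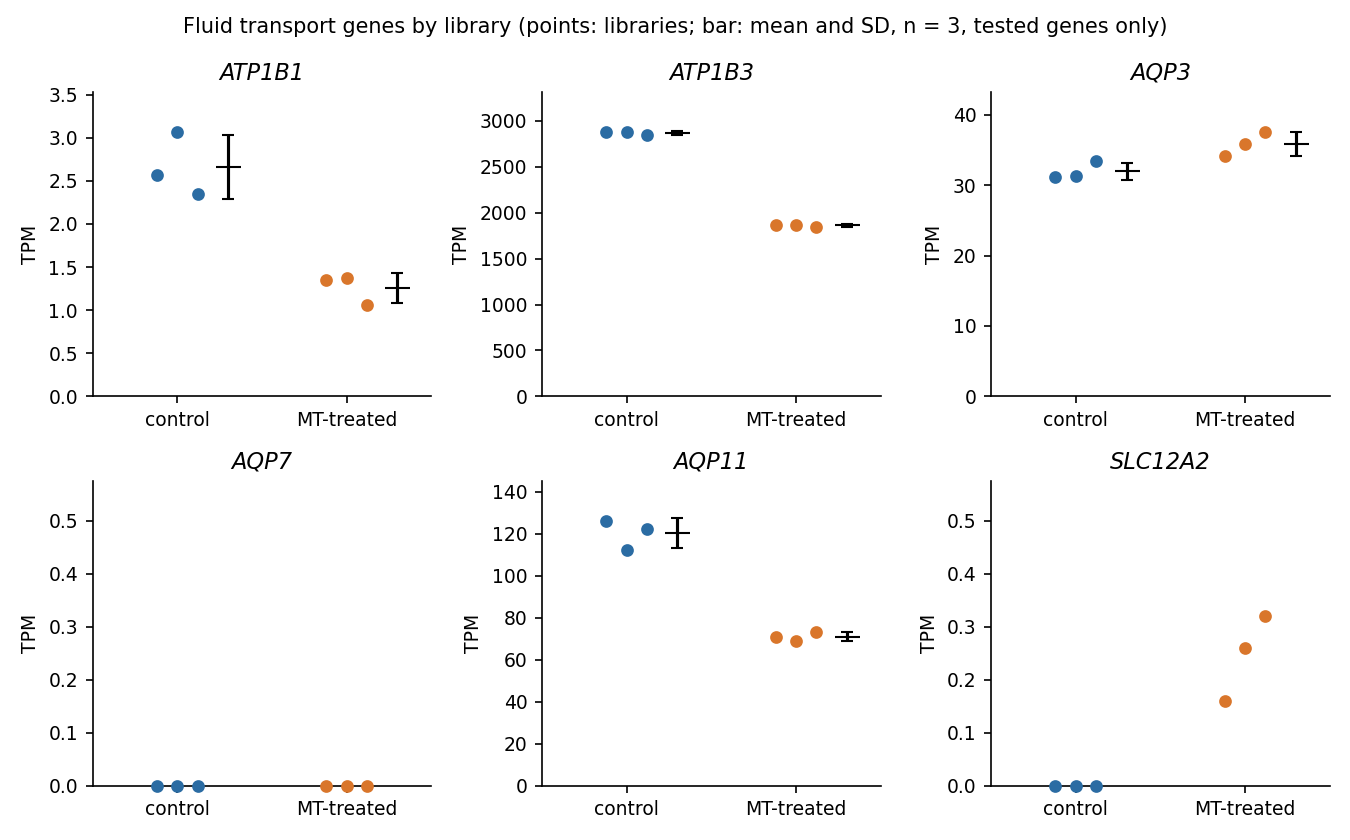
TPM of the 6 fluid transport genes in each library, with control libraries in blue and MT-treated libraries in orange; each panel has its own linear axis from 0, and bars give the mean and SD (n = 3) of the 4 tested genes. ATP1B3 lies between 1847 and 2881 TPM and AQP7 at 0 in all libraries, and the groups do not overlap for the other 5 genes.

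The other genes of the Na,K-ATPase were taken from a list of 14 subunit and FXYD genes, of which 5 were tested, 3 higher and 2 lower (61.6% and 34.1% of all tested genes), with a median log2 fold change of 0.26 against 1.12 over all tested genes; 1 was higher and 3 were lower after quantile normalization (46.4% and 44.4% of all tested genes), and 3 were higher and 1 was lower after median centring (70.4% and 25.4%). ATP1B2, the beta 2 subunit, had 0.04 TPM in 1 MT-treated library and was listed at 0 in the other libraries.

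The FXYD proteins are small regulators that modulate the transport properties of the pump. FXYD4, also called CHIF, was the second most abundant gene of the list, with 941, 917 and 937 TPM in control and 1112, 1087 and 1139 TPM in MT-treated libraries. It was higher in the MT-treated group by 0.26 on the log2 scale (standard error 0.02, adjusted p = 2.65e-05 by limma), and by 0.73 after median centring. In the summed TPM of the list, FXYD4 made up 24.5% ± 0.322 without MT and 37.2% ± 0.647 with MT, and ATP1B3 made up 75.4% ± 0.311 and 62.2% ± 0.796 (SD, n = 3 each). FXYD5 was at 0 in all control libraries but reached 8.58, 8.24 and 16.9 TPM after MT, a rise not called after quantile normalization (adjusted p = 0.1079 by limma). FXYD6 had 0.48, 0.48 and 0.33 TPM in control and 5.01, 4.76 and 5.07 TPM in MT-treated libraries, but its log2 fold change of 2.06 (adjusted p = 8.37e-08 by limma) turned to -0.78 after quantile normalization.

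AQP11, an aquaporin of intracellular membranes including the endoplasmic reticulum, was the most abundant aquaporin. It had 126, 112 and 123 TPM in the control libraries. The MT-treated libraries had 70.8, 68.8 and 73.2 TPM, all below the lowest control value. Means were 120.3 ± 7.20 TPM and 70.9 ± 2.17 TPM (SD, n = 3 each), and the ratio of MT-treated to control was 0.590; the log2 fold change was -0.75 (standard error 0.05, 95% interval -0.87 to -0.63, adjusted p = 9.22e-06 by limma). After median centring the fall was -0.27 on the log2 scale (adjusted p = 0.00137 by limma), and relative to the median fold change it was -0.48. In each control library AQP11 exceeded 77.7% to 80.2% of the 5988 genes present in all libraries, and in each MT-treated library 72.1% to 73.1%.

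AQP3, an aquaglyceroporin of the plasma membrane that passes water and glycerol, had 31.2, 31.3 and 33.4 TPM in control and 34.1, 35.8 and 37.6 TPM in MT-treated libraries. The lowest MT-treated value lay just above the highest control value. Means were 32.0 ± 1.24 TPM in control and 35.8 ± 1.75 TPM after MT (SD, n = 3 each), and their ratio was 1.12. The log2 fold change was 0.16 (standard error 0.05, 95% interval 0.04 to 0.27, adjusted p = 0.0161 by limma). The call lay near the threshold and was lost without control replicate 1 (log2 fold change 0.14, adjusted p = 0.0545 by limma) and without control replicate 2 (0.15, adjusted p = 0.0530 by limma), where 61.2% and 61.3% of all tested genes were still called higher. Relative to the shift of the libraries, AQP3 was higher by 0.64 on the log2 scale (adjusted p = 1.03e-05 by limma), and relative to the median fold change by 0.43. It exceeded 41.5% to 43.2% of the genes present in all libraries in control and 54.9% to 57.5% in MT-treated blastocysts.

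AQP7, the other aquaglyceroporin of the group, was listed at 0 in all 6 libraries, as were 43.6% of the genes with a symbol. In the RefSeq annotation of the bovine assembly ARS-UCD2.0, no other gene lay between AQP7 and AQP3. Of 13 aquaporin genes looked for, 11 were listed in the table, and AQP3 and AQP11 were the only ones with a TPM above 0 in any library. Of the 2, 1 was higher and 1 lower, against 61.6% and 34.1% of all tested genes.

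The balance between AQP3 and AQP11 differed more between the groups than the level of AQP3 did. Of the pair, AQP11 differed more, with an MT-treated to control ratio of 0.590 against 1.12 for AQP3. AQP3 made up 19.8%, 21.8% and 21.4% of the TPM of AQP3, AQP7 and AQP11 together in the control libraries. In the MT-treated libraries it made up 32.5%, 34.2% and 33.9%. The means were 21.0% ± 1.06 and 33.6% ± 0.921 (SD, n = 3 each), a difference of 12.5 percentage points, and the groups were far apart (p = 0.1 by the exact permutation test, two-sided). Expressed as a ratio, which was chosen after the values were seen, AQP11 had 3.77 ± 0.247 times the TPM of AQP3 in control and 1.98 ± 0.0831 times in MT-treated blastocysts (SD, n = 3 each). AQP11 remained the more abundant of the pair in every library.

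**Figure D2:**
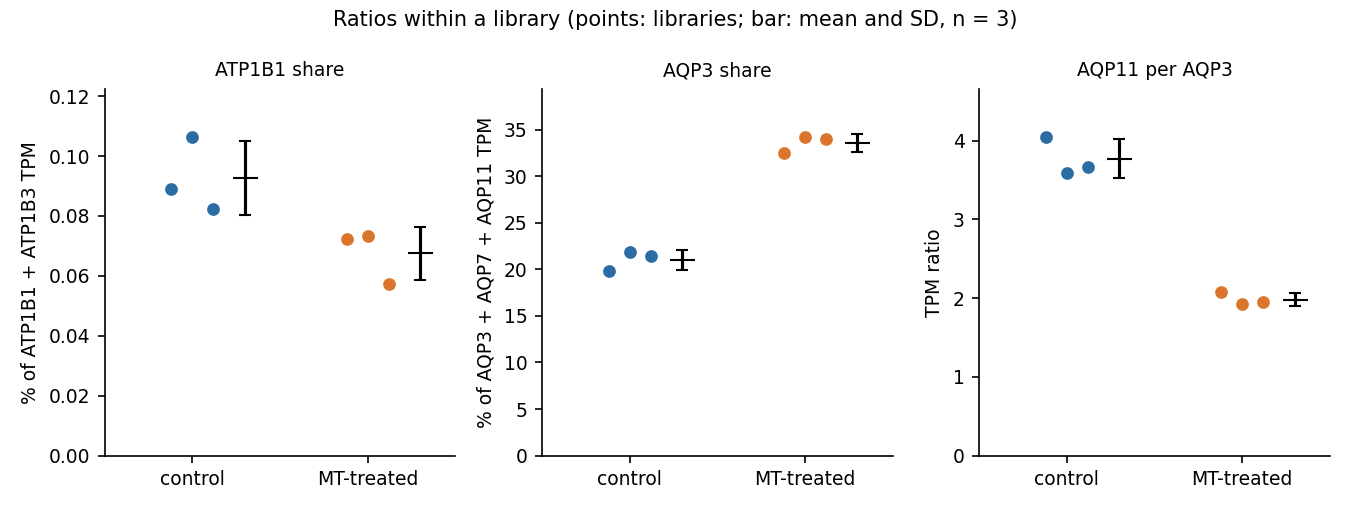
Ratios of TPM within each library, on linear axes from 0: the ATP1B1 share of ATP1B1 and ATP1B3 in percent, the AQP3 share of the 3 aquaporins in percent, and AQP11 per AQP3. Blue points are control and orange points MT-treated libraries, bars give the mean and SD (n = 3), and the groups do not overlap in any panel; the AQP3 share is 19.8% to 21.8% in control and 32.5% to 34.2% in MT-treated libraries.

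SLC12A2, the cotransporter NKCC1 that carries sodium, potassium and chloride into cells, was at 0 in all control libraries but reached 0.16, 0.26 and 0.32 TPM after MT. It was detected in 1 group only, at a level below the minimum for testing. In a fit without that minimum, on 16288 genes, its adjusted p-value was 0.00125 by limma, where 81.3% of the genes were called and 54.5% were called higher. Of the 2125 genes above 0 in all MT-treated libraries with a mean under 1 TPM there, 53.6% were listed at 0 in every control library, as SLC12A2 was.

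Among 14 genes for cation-chloride cotransporters and their regulatory kinases, 8 were tested, with 7 higher and 1 lower, against 61.6% and 34.1% of all tested genes. The median log2 fold change was 2.85, against 1.12 over all tested genes. After quantile normalization it was 0.38, against 0.04 over all tested genes, with 5 higher and 2 lower (46.4% and 44.4% of all tested genes). The WNK kinases act through OXSR1 and STK39, which phosphorylate SLC12A2 and related cotransporters. STK39 and WNK2 had the largest rises in log2 fold change, both from 0 in all control libraries. After MT, STK39 was at 22.6, 14.6 and 24.4 TPM and WNK2 at 18.9, 15.3 and 16.7 TPM. SLC12A8, the gene that was lower, stood at 5.03, 5.25 and 5.52 TPM in control blastocysts and was listed at 0 in every MT-treated library.

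Sodium-proton exchangers bring sodium into the cell in exchange for protons. Of 18 genes for these exchangers and their partner proteins, 15 were listed and 11 were tested, with 7 higher and 4 lower, against 61.6% and 34.1% of all tested genes. The median log2 fold change was 2.24, and it was 0.01 after quantile normalization, with 5 higher and 4 lower. After median centring 7 were higher and 2 lower. SLC9A9 and SLC9A4 had the largest rises in log2 fold change, both from 0 in all control libraries. After MT, SLC9A9 was at 21.6, 30.6 and 22.7 TPM and SLC9A4 at 17.1, 14.9 and 16.0 TPM. SLC9A8, an exchanger of the Golgi apparatus, was the opposite case, with 83.7, 86.1 and 81.4 TPM in control and 0 in every MT-treated library. NHERF2, a scaffold protein of SLC9A3, had 2.91, 2.17 and 2.67 TPM in control and was also listed at 0 in every MT-treated library. SLC9A3 itself was at 0 in every control library and at 0.04, 0.16 and 0.11 TPM in the MT-treated libraries.

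Of 19 genes for bicarbonate and anion exchange, 11 were tested and 10 were higher, of which 8 started from 0 in all control libraries, against 61.6% of all tested genes higher and 54.8% of those at 0 in all controls. The remaining gene, SLC4A4, was not called (adjusted p = 0.0858 by limma) but was called higher after median centring (log2 fold change 1.22, adjusted p = 0.0150 by limma) and turned to -0.07 after quantile normalization (adjusted p = 0.9392 by limma), with 10.9, 11.6 and 12.7 TPM in control and 32.0, 22.5 and 11.3 TPM in MT-treated libraries. The median log2 fold change was 3.42, against 1.12 over all tested genes. After quantile normalization it was 0.91, against 0.04 over all tested genes, with 8 higher and 1 lower (46.4% and 44.4% of all tested genes). The carbonic anhydrases CA9 and CA4, which interconvert carbon dioxide and bicarbonate, had the largest rises, from 0 in every control library to 20.9, 19.6 and 21.1 TPM for CA9 and 16.4, 18.1 and 21.1 TPM for CA4.

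Among 26 genes for sodium and chloride channels and their regulators, 19 were tested, with 11 higher and 6 lower (61.6% and 34.1% of all tested genes). The median log2 fold change was 1.604, against 1.12 over all tested genes. The split turned to 6 higher and 11 lower after quantile normalization (46.4% and 44.4% of all tested genes). SCNN1A, the alpha subunit of the epithelial sodium channel, fell from 92.95 ± 12.4 to 18.1 ± 2.71 TPM (SD, n = 3 each; log2 fold change -2.30, adjusted p = 4.56e-06 by limma). SGK1, a kinase that raises the surface level of that channel, fell from 58.5 ± 1.11 to 16.1 ± 3.72 TPM (SD, n = 3 each; log2 fold change -1.82, adjusted p = 3.11e-05 by limma). The other listed subunits of the epithelial sodium channel, SCNN1B, SCNN1D and SCNN1G, were at 0 in every library. ANO10 had the largest rise, with 0.26, 0.32 and 0 TPM in control and 38.5, 56.5 and 50.8 TPM in MT-treated libraries. CLCN5, a chloride-proton exchanger of endosomes, had 0.93, 0.76 and 0.81 TPM in control and 9.15, 52.1 and 9.01 TPM in MT-treated libraries, so 1 library set its MT-treated mean of 23.4 TPM, which was 9.08 TPM without MT-treated replicate 2 (log2 fold change 2.46, adjusted p = 9.9e-07 by limma). With all libraries CLCN5 was not called after quantile normalization (adjusted p = 0.5501 by limma).

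Over all 6 transport lists, 56 genes were tested, of which 39 were higher and 14 lower, against 61.6% and 34.1% of all tested genes. The split was 26 higher and 22 lower after quantile normalization, where 46.4% of all tested genes were called higher and 44.4% lower, and 42 higher and 10 lower after median centring, where 70.4% were called higher and 25.4% lower. For 22 of the 39 rises all control libraries were at 0, as for 54.8% of the rises over all tested genes. The medians of the lists include genes at 0 throughout a group, whose fitted fold changes depend on the pseudocount: the median over all 6 lists was 2.16, and it was 3.77 with a pseudocount of 0.1 and 0.04 after quantile normalization.

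**Figure D3:**
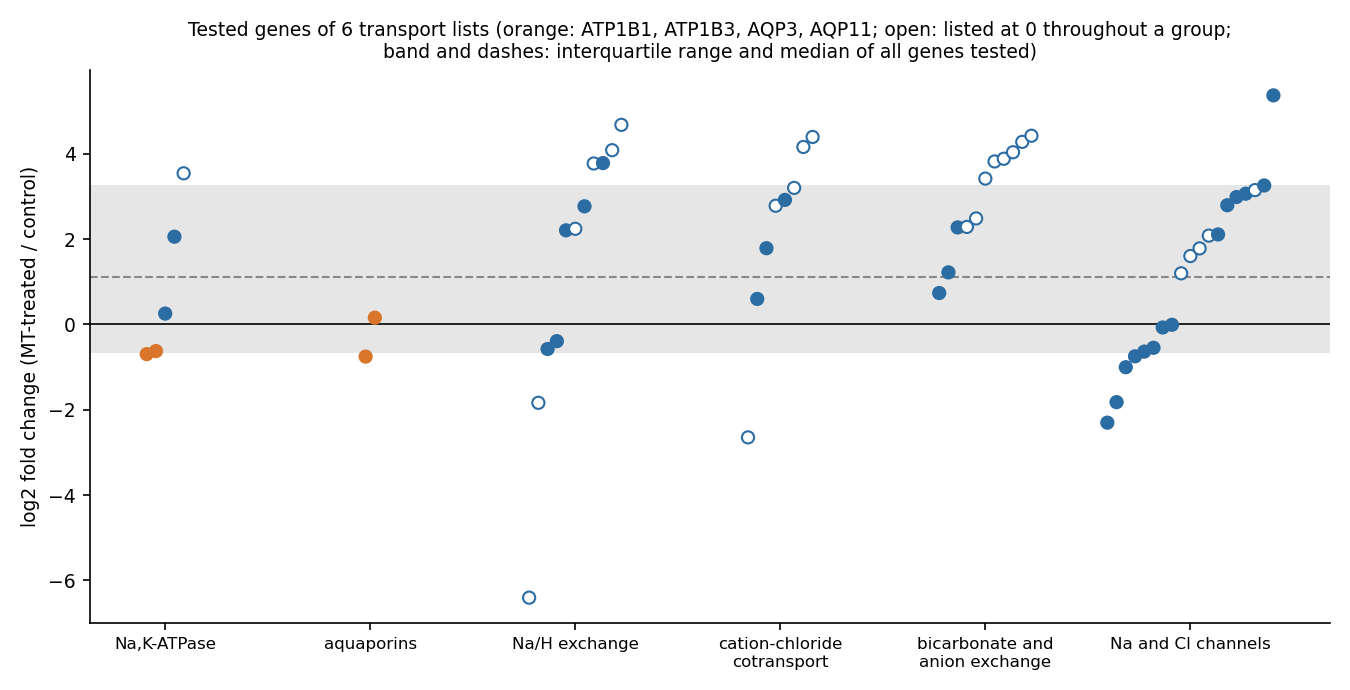
Log2 fold change (MT-treated against control, on log2(TPM + 1)) of the tested genes of 6 transport lists, 1 point a gene. Orange points are ATP1B1, ATP1B3, AQP3 and AQP11, open points are genes listed at 0 throughout a group, and the grey band and dashed line are the interquartile range and the median of 1.12 of all tested genes; the orange points lie between -0.75 and 0.16.

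The sizes of the differences were set beside those of the 5988 genes present in all libraries, since many other tested genes were at 0 in 1 group. Of these genes, 43.8%, 39.5%, 10.97% and 46.4% had a smaller log2 fold change in either direction than ATP1B1, ATP1B3, AQP3 and AQP11, respectively, so ATP1B1, ATP1B3 and AQP11 lay near the middle and AQP3 near the lower end. By signed value, 35.5% had a lower log2 fold change than ATP1B1, 37.9% than ATP1B3, 33.9% than AQP11 and 65% than AQP3. Profiles over the 6 libraries, centred on their own mean on the log2 scale, were compared with those of the 10095 other tested genes with a symbol by Euclidean distance. The nearest to ATP1B3 were RPL7 and ABCF1, both at a distance of 0.02, and the nearest to AQP11 were DYNC1H1 and LSR, both at 0.09. RBM14 and GRIPAP1 were nearest to AQP3, at 0.06 and 0.07, and BIRC2 and OTUD7B were nearest to ATP1B1, both at 0.15. Such profiles were common: 810 tested genes lay within 0.3 of ATP1B3, 735 of AQP3, 653 of AQP11 and 314 of ATP1B1.

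**Figure D4:**
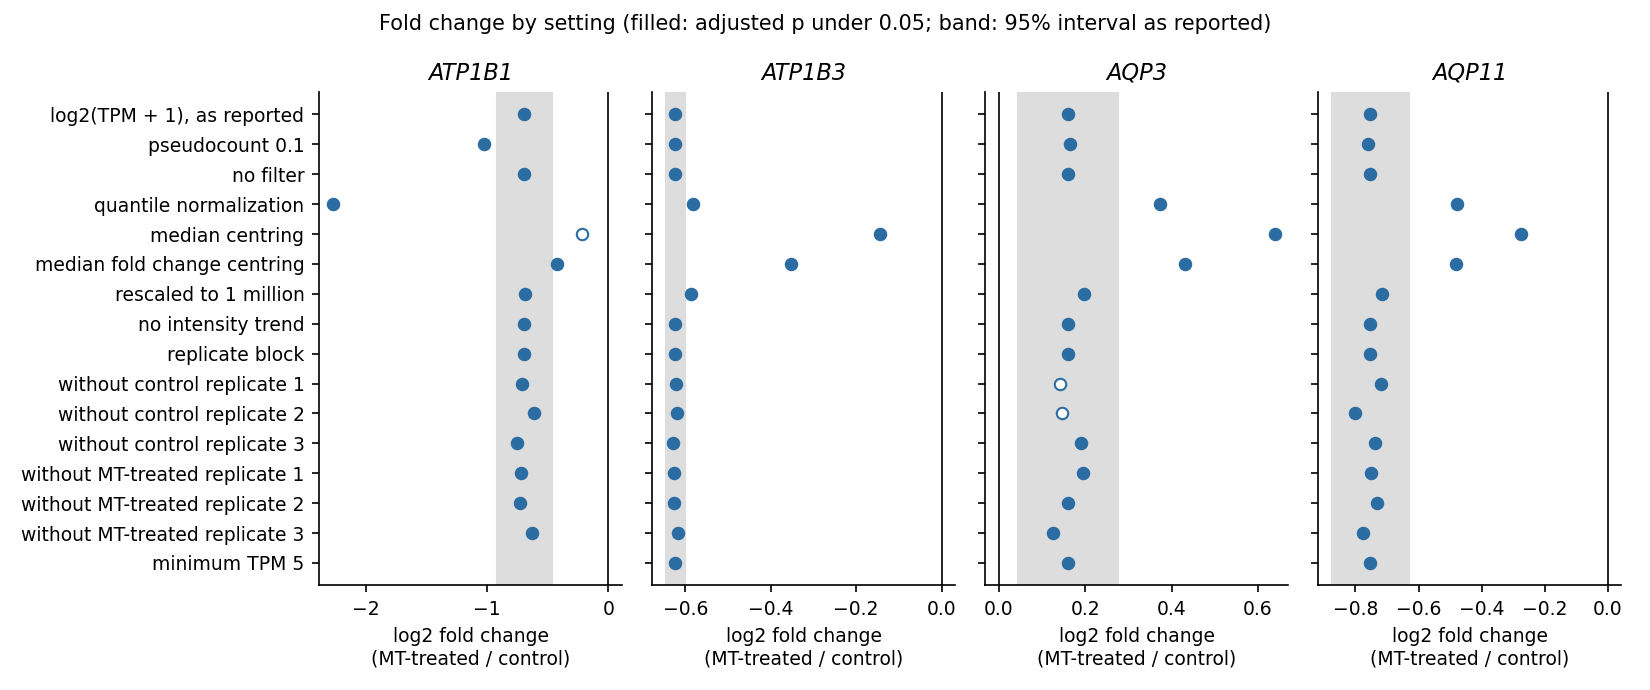
Log2 fold change (MT-treated against control) of ATP1B1, ATP1B3, AQP3 and AQP11 as reported and under each alternative setting, with filled points for an adjusted p under 0.05 by limma, open points otherwise, and a grey band for the 95% interval as reported. No point crosses 0; median centring moves ATP1B3 to -0.14 and AQP3 to 0.64, ATP1B1 is open after median centring, and AQP3 is open without control replicate 1 or 2.

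Fluid transport genes are used by the trophectoderm, and markers of the cell types of the embryo were examined in the same libraries. In pooled whole embryos, fewer cells of a type and less RNA per cell cannot be told apart. All 17 trophectoderm markers were tested, with 11 higher and 5 lower in MT-treated blastocysts (61.6% and 34.1% of all tested genes), or 13 higher and 2 lower after median centring (70.4% and 25.4%), and their summed TPM was 12964 to 13355 in control and 12039 to 12427 in MT-treated libraries. Of the defining markers, KRT8 fell from 8695 ± 145 to 6905 ± 133 TPM (but was 0.15 higher on the log2 scale after median centring), and KRT18 rose from 2766 ± 35.2 to 3654 ± 59.2 TPM (SD, n = 3 each). CDX2, the transcription factor that defines the trophectoderm, was at 0 in all control libraries but at 17.2, 15.0 and 16.1 TPM after MT. The other transcription factors of the list went both ways: GATA2, GATA3, TFAP2C and TEAD4 were higher (TEAD4 was not called after quantile normalization), and TFAP2A and ELF3 were lower, with TFAP2A at 36.1 ± 3.99 TPM in control and 0.49 ± 0.0520 TPM after MT and ELF3 at 57.7 ± 2.80 and 11.3 ± 0.753 TPM (SD, n = 3 each). The 10 markers of the inner cell mass summed to 632 to 639 TPM in control and 515 to 518 TPM in MT-treated libraries. Among the 8 tested, 4 were higher, 3 lower and 1 not called, against 61.6% of all tested genes higher and 34.1% lower. NANOG, SOX2, LIN28A and KLF4 were higher (SOX2 was not called after quantile normalization). NANOG and LIN28A were at 0 in every control library, as were 54.8% of all genes called higher. SOX2 had 0, 0.02 and 0 TPM in control. SALL4, DPPA3 and SPIC were lower. POU5F1 was not called, with 189.8 ± 1.48 TPM in control and 193 ± 1.83 TPM after MT (SD, n = 3 each). It was called higher after median centring (log2 fold change 0.50, adjusted p = 1.19e-07 by limma) and after quantile normalization (0.24, adjusted p = 1.14e-05 by limma). The 10 hypoblast markers summed to 18.4 to 19.0 TPM in control and 107 to 115 TPM in MT-treated libraries. All 6 tested genes were higher, against 61.6% of all tested genes. After quantile normalization 5 were higher and 1 lower, against 46.4% and 44.4% of all tested genes. Of the tested genes, PDGFRA, HNF4A and RSPO3 were at 0 in every control library. GATA4 and FOXA2 were at 0 in every library of both groups. Of 14 cumulus and granulosa cell markers 13 were listed. They summed to 149.9 to 157 TPM in control and 121 to 123 TPM in MT-treated libraries, most of it HSD3B1. The 2 tested genes, HSD3B1 and FSHR, were both lower (34.1% of all tested genes), and both higher after median centring (70.4%). FSHR lay near the threshold (adjusted p = 0.0318 by limma). It was not called after rescaling every library to the same total (adjusted p = 0.0684 by limma). CYP19A1 did not exceed 0.01 TPM in any library. The 14 markers of maternal oocyte transcripts summed to 45.55 to 49.3 TPM in control and 37.0 to 39.2 TPM in MT-treated libraries. Of 2 tested, 1 was higher and 1 lower, against 61.6% and 34.1% of all tested genes. The part of cell composition in the differences of the transport genes was not tested.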

How the data were processed

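Per the file headers and the study's methods, the deposited values are TPM for each gene in each library, given to 2 decimals. The authors checked reads with FastQC 0.11.9, aligned them with STAR 2.7.9a, counted them with featureCounts (Subread 1.6.3) and tested them with DESeq2. The methods name the assembly ARS-UCD1.3 and the labels ARS-UCD1.2, so no coordinates are given, and how TPM were derived from counts is not given in the sources used here. The methods name Smart-seq2 and the labels a TruSeq kit, so the library chemistry is uncertain. Sequencing depth per library was not used here, and TPM holds no counts. Libraries of a group were nearly identical over the tested genes, although the methods describe separate runs, and 4037 tested genes were at exactly 0 in every control library. What the p-values and the rises from 0 measure beyond these libraries was not tested.

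Groups and replicate numbers came from the labels. The MT concentration, the maturation time and the pool size came from the methods, which state 3 separate production runs per group. Per the methods, the oocytes of a run were pooled, allocated to treatments at random and treated concurrently. The methods do not say that a replicate number marks the same run in both groups, so the libraries were treated as unpaired. The log2(TPM + 1) of all genes reaching 1 TPM in 3 or more libraries went into limma 3.58.1 (R 4.3.3; lmFit, then eBayes with trend), and p-values were adjusted by Benjamini-Hochberg over all these genes, with a threshold of 0.05. These p-values set the difference between the groups against the spread between libraries of a group, moderated over all genes by eBayes. For ratios formed within a library, exact permutation tests were run in scipy 1.17.1, two-sided. The limma step was tested on simulated data in which 200 of 11953 genes were changed. Changes of 0.25 and 1 on the log2 scale were recovered at 80% and 98%, with 11 false calls. In the real libraries 95.7% of the tested genes were called, so a simulation with so few changed genes does not check those calls.

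The members and the gene lists were chosen with earlier results of these data known. Some genes are not reported here and were left out of the lists. Genes named were the 6 members, the tested genes of the Na,K-ATPase and aquaporin lists, the 2 largest rises and 2 largest falls in log2 fold change among called genes with non-overlapping groups in each other transport list, and the 2 nearest profiles of each tested member. SLC4A4, ATP1B2, the genes of the additional observations and the cell type markers were named in addition, and the choice of markers to print was made after their values were seen. Gene neighbours were read from RefSeq, in which all 6 members matched by symbol. Alternatives were median centring, quantile normalization, rescaling every library to the same total, a smaller pseudocount (0.1), a higher minimum (5 TPM), no minimum, eBayes without the trend, a replicate block and leaving out each library in turn. Centring on the median fold change was added after seeing the data.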

Additional observations from a re-analysis of the deposited data

How the results depend on the processing

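ATP1B1, ATP1B3, AQP3 and AQP11 kept their direction under every alternative run. The calls of ATP1B3 and AQP11 held throughout, that of ATP1B1 was lost after median centring (-0.22), and it could not be fitted at a minimum TPM of 5. Leaving out 1 library moved the log2 fold change of AQP3 between 0.13 and 0.19, and the number of members called higher between 0 and 1, which was 2 without a filter, where SLC12A2 was added. The differences in the 3 ratios within a library moved by less than 1 SD with each library left out, and those in both shares did not move beyond it when all listed aquaporins or beta subunits formed the denominator. The number of transport list genes called lower was 22 after quantile normalization in place of 14. For the replicate block, deviations from the group means correlated over 6925 genes at 0.07, -0.03 and 0.14 between libraries of the same number, and not every library correlated best with its own number. The numbers were therefore not taken as pairs. With the block, 11461 genes were called in place of 11438, and the log2 fold changes of ATP1B1, ATP1B3, AQP3 and AQP11 stayed at -0.70, -0.62, 0.16 and -0.75 with all 4 called. TPM gives no counting error for ATP1B1 and SLC12A2, the members with the lowest values above 0.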

Other observations

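The following genes of the channel list were picked after their values were seen. The LRRC8 proteins form the volume-regulated anion channel, with LRRC8A as the obligatory subunit. LRRC8A fell from 52.3 ± 1.53 to 25.6 ± 1.26 TPM (SD, n = 3 each; adjusted p = 1.07e-06 by limma), a log2 fold change of -0.52 after median centring. LRRC8D, an accessory subunit, had 1.29, 1.16 and 1.29 TPM in control and 23.7, 15.2 and 15.6 TPM in MT-treated libraries, and LRRC8B was at 0 in all control libraries but at 8.17, 8.25 and 7.25 TPM after MT. These directions were the same after median centring and quantile normalization. LRRC8A was thus the most abundant of these 3 subunits in every library, by a smaller margin in MT-treated blastocysts.

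NEDD4L, the ubiquitin ligase that removes the epithelial sodium channel from the membrane, rose from 4.14 ± 0.799 to 34.4 ± 1.21 TPM (SD, n = 3 each; log2 fold change 2.80, adjusted p = 7.26e-07 by limma), while SCNN1A and SGK1 fell. SCNN1B, SCNN1D and SCNN1G, the other listed subunits of the epithelial sodium channel, were at 0 in every library. CLIC1, the most abundant gene of the channel list, had 4136, 4072 and 4172 TPM in control and 4114, 4040 and 4165 TPM in MT-treated libraries (log2 fold change -0.01, adjusted p = 0.6397 by limma), and it was called higher by 0.47 on the log2 scale after median centring. The beta 3 subunit of the Na,K-ATPase was thus below CLIC1 in TPM in both groups.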
